A study of Mus musculus with 8 samples.

Results

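The mammalian circadian clock was described here through 10 of its genes, Per1, Per2, Per3, Cry1, Cry2, Clock, Nr1d1, Nr1d2, Dbp and Tef, in sorted mouse T cells with and without Eaf2. The members were taken by symbol from the deposited gene table, which held 17384 genes, and all 10 were found. Low counts removed Nr1d1, so 9 of the 10 were among the 12340 genes tested. They were chosen with the comparison's result known, because Per2 was lower in cells without Eaf2 and the question was whether other clock genes were lower with it. Their differences between the genotypes are therefore given as a description. Where a member is said to be called or not, this only records its side of the threshold in the fit over all genes, an adjusted p under 0.05, and is no test of it.

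RNA was sequenced from B220+CD3+ spleen cells in 4 libraries titled EAF2Faslpr, from Eaf2-/-Faslpr mice, and 4 libraries titled Faslpr, from Faslpr mice. All 8 libraries carry the lpr form of the death receptor gene Fas, and mice with it accumulate T cells that bear the B220 form of CD45. Eaf2 encodes a factor that binds the ELL transcription elongation proteins. Not given in the sources used here are the deleted part of Eaf2, the age of the mice and the time of day at which spleens were taken. Nor is it stated whether each library is a separate animal, so p-values reflect the spread among these libraries alone, and that spread may be technical.

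In the clock, the proteins CLOCK and BMAL1 (gene Arntl) bind E-box sequences and switch on the Per and Cry genes, whose proteins then hold CLOCK and BMAL1 back until they are degraded. A further loop runs through the REV-ERB receptors (Nr1d1, Nr1d2), which repress Arntl, and the ROR receptors, which activate it. DBP and TEF are output factors that bind D-box sequences. In tissues with a strong rhythm, the transcripts of Per3, Nr1d1, Nr1d2, Dbp and Tef rise and fall in nearby phases and Arntl runs opposite to them, whereas Per1 and Per2 are also induced by signals such as cAMP and glucocorticoid.

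The promoters of a gene that rose here and of a pair of members are shown because they hold the sequence that CLOCK and BMAL1 bind. The sequences are from RefSeq, 300 bases from 250 before the annotated start, 5′ to 3′, with capitals marking the E-box CACGTG and the related E′-box CACGTT on either strand.
Ciart promoter, GRCm38.p6, chr3:95882179-95882478, minus strand: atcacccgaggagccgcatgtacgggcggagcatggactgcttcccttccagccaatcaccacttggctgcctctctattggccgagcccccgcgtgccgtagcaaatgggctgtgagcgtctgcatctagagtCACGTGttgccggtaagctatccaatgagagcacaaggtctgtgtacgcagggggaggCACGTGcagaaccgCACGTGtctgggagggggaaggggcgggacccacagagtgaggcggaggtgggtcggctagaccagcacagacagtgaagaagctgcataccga
Cry1 promoter, GRCm38.p6, chr10:85185005-85185304, minus strand: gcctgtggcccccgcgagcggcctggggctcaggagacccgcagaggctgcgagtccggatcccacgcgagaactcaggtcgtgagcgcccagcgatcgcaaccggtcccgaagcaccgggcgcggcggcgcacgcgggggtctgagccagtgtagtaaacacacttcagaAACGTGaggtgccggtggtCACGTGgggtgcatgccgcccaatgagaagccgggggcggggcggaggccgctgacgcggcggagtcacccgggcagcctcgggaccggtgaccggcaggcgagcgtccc
Per1 promoter, GRCm38.p6, chr11:69098699-69098998, plus strand: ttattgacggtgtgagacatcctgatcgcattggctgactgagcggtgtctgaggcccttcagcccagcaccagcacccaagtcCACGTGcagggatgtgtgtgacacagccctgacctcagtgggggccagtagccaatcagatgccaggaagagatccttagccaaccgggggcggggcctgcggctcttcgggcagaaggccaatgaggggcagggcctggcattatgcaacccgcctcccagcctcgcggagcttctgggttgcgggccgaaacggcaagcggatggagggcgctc
Ciart held the E-box at 3 places, at positions -116, -58 and -44 counted from the start base as 0. Cry1 held an E-box at -60 and an E′-box at -79, and the Per1 promoter shown held an E-box at -166. Of the 10 members, 3 had an E-box in at least 1 promoter of the table (Per1, Cry1 and Tef), and 3 had an E′-box (Cry1, Cry2 and Nr1d1). Of all 32851 promoters, 7.15% held an E-box and 4.68% an E′-box. Some members have more than 1 promoter and were counted if any held the sequence, whereas the shares count single promoters. The counts of members and the shares are therefore not like for like. The cAMP response element TGACGTCA, also searched on both strands, stood in the promoters of 0 members and in 1.79% of all, and its shorter core TGACG stood in those of 3 members (Per1, Cry1 and Cry2) and in 20.8% of all. The D-box, searched as TTATGTAA and TTACGTAA, stood in the promoter of 1 member, Per3, which held it at -205 and at -158, and in 1.06% of all. The table holds no entry for Per2, so its promoter was not searched and the counts of members cover only the others. Of the clock genes outside the members that rose besides Ciart, Bhlhe40 has no entry either. The Rora promoter held neither an E-box nor an E′-box. The part of E-boxes in the rise of Ciart was not tested.

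The libraries held between 15.6 and 18.6 M estimated reads (M, megareads). Levels are given in CPM, estimated reads per megaread of the tested genes after TMM scaling, and a floor of 3 reads lay between 0.161 and 0.193 CPM, for counting error only. Eaf2 averaged 4.74 ± 1.05 CPM in the EAF2Faslpr and 25.5 ± 4.50 CPM in the Faslpr libraries (SD, n = 4 each; adjusted p = 2.9e-05, edgeR's quasi-likelihood test). Genes listed for T cells, 9 of 10 being in the table, summed to between 5316 and 5500 CPM in EAF2Faslpr and between 5049 and 5276 CPM in Faslpr libraries. The largest part was Ptprc, the gene of CD45 and not of the T cell receptor, at 2312 CPM in EAF2Faslpr and 1989 CPM in Faslpr libraries. Only Cd2 of this list was called, as higher. The receptor genes Cd3d, Cd3e, Cd3g and Cd247 were not called, with log2 fold changes from −0.11 to 0.16. Of 16 B cell markers tested 15 rose and 0 fell, and their sum was 421 to 784 CPM in EAF2Faslpr and 116 to 187 CPM in Faslpr libraries. Of 11 macrophage markers tested 3 rose and 2 had log2 fold changes below 0, where the threshold called 7.14% of all genes tested as higher. The macrophage list summed to 82.8 to 196 CPM in EAF2Faslpr and 63.0 to 80.7 CPM in Faslpr libraries. Without EAF2Faslpr replicate 3 its highest EAF2Faslpr sum was 115 CPM. Of 7 markers of antibody-secreting cells tested 1 fell, Xbp1, and none rose. The sum of the list was 690 to 851 CPM in EAF2Faslpr and 860 to 982 CPM in Faslpr libraries, without overlap. Its largest parts were Sdc1, at 365 CPM in EAF2Faslpr and 439 CPM in Faslpr libraries, and Xbp1, at 208 and 290 CPM. Sdc1, Prdm1, Irf4, Jchain, Mzb1 and Derl3 did not pass. EAF2Faslpr replicate 3 stood apart with the highest sums of B cell and macrophage markers, and with 132 CPM of neutrophil markers against 15.5 to 21.4 CPM in the other EAF2Faslpr and 14.2 to 19.2 CPM in the Faslpr libraries. No listed marker that was in the table was at 0 in all 8 libraries. The part of these other cells in the results below was not tested, and in such bulk samples fewer cells of a type and less RNA per cell cannot be told apart.

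Per2 was lower in the EAF2Faslpr libraries and was called, and the other 8 tested members were not called. Per2 encodes a repressor of CLOCK and BMAL1. It stood at 16.1, 14.5, 13.5 and 20.4 CPM in EAF2Faslpr replicates 1 to 4, against 19.6, 25.3, 22.2 and 24.0 CPM in Faslpr replicates 1 to 4. The groups overlapped through 1 library on each side, since EAF2Faslpr replicate 4 lay above Faslpr replicate 1. The mean level was 16.1 ± 3.05 CPM in EAF2Faslpr and 22.8 ± 2.46 CPM in Faslpr libraries (SD, n = 4 each), which is 1.41-fold lower (log2 fold change −0.50, SE 0.14). Estimated Per2 reads ranged from 244 to 369 in EAF2Faslpr and from 342 to 446 in Faslpr libraries. The call did not hold in 6 of the 8 fits that left out 1 library each, with log2 fold changes from −0.63 to −0.42. It held without EAF2Faslpr replicate 4 and without Faslpr replicate 1, the libraries through which the groups overlapped, and was lost without any of the other 6 libraries. Without EAF2Faslpr replicate 3, which had the lowest Per2 level and the most B cell, macrophage and neutrophil transcripts, the log2 fold change was −0.42.

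Per2 is 1 of 9 tested members called, where the same threshold called 12.1% of all genes tested, 4.96% as lower and 7.14% as higher. As the members were chosen on this comparison, nothing is read from that share. The members' median log2 fold change was −0.06, beside −0.01 for all genes tested, with 4 members above 0 and 5 below. CPM of the groups did not overlap for 1 of the 9, Cry1, and for 17.7% of all genes tested.

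**Figure D1:**
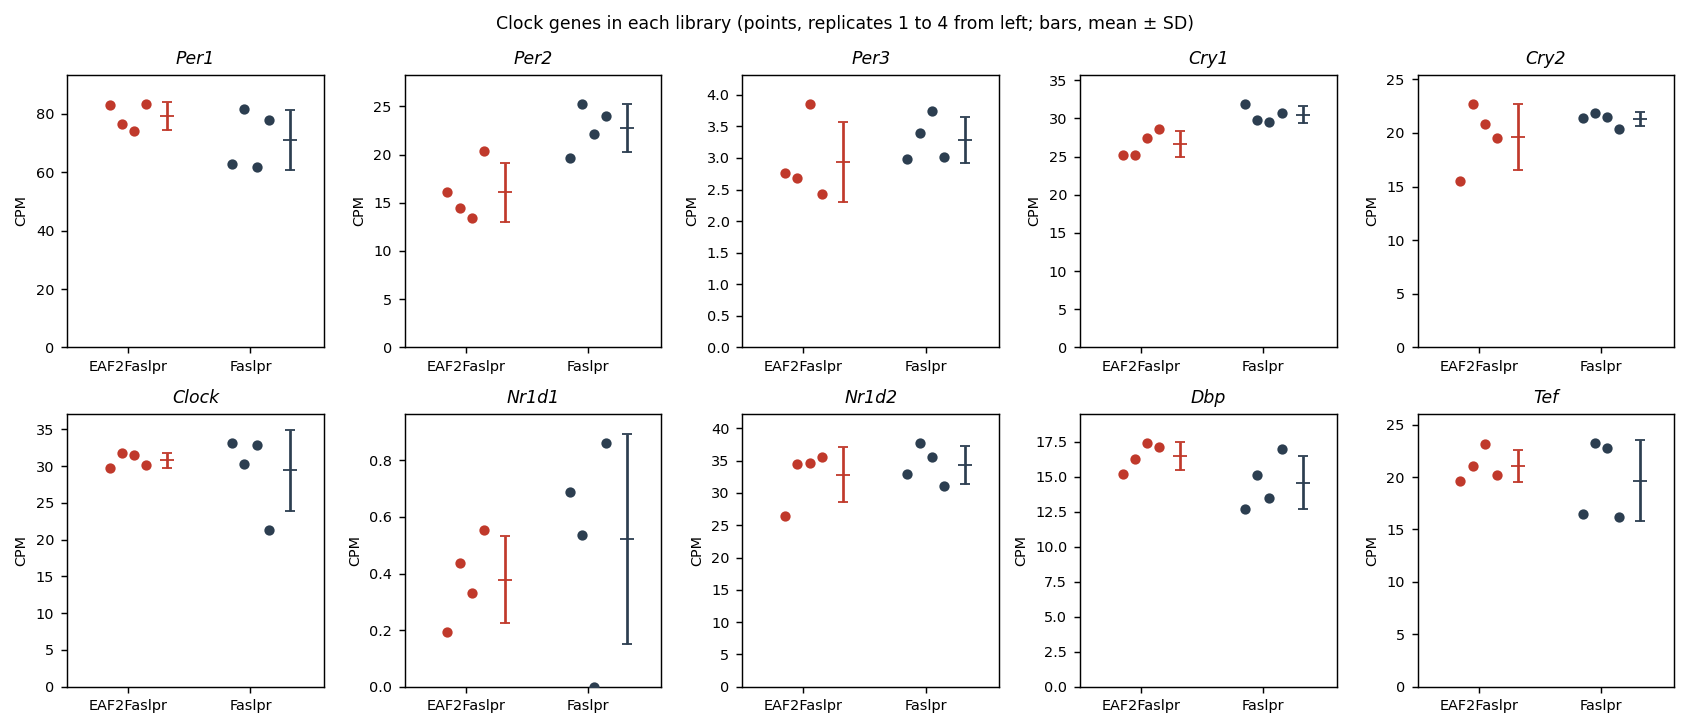
CPM of the 10 clock genes in each library, with EAF2Faslpr to the left of Faslpr, replicates 1 to 4 from left to right as points, and bars for the mean ± SD (n = 4). Per2 is lower in EAF2Faslpr libraries, of which replicate 4 at 20.4 CPM lies above Faslpr replicate 1 at 19.6 CPM. Cry1 is separated by a narrow margin, and Nr1d1 stays under 1 CPM.

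Among the PER genes, Per1 and Per3 were not called. Per1, a repressor like Per2 and an early gene of cAMP signalling in other cells, was the most abundant member, at 83.1, 76.4, 74.2 and 83.5 CPM in EAF2Faslpr replicates 1 to 4, against 63.0, 81.7, 61.7 and 77.8 CPM in Faslpr replicates 1 to 4. Faslpr replicates 1 and 3 were the low libraries, and the groups overlapped (log2 fold change 0.16, SE 0.10, not called). Per3, which is dispensable for the core loop in mice, was at 2.76, 2.68, 3.86 and 2.43 CPM in EAF2Faslpr replicates 1 to 4, against 2.98, 3.40, 3.74 and 3.01 CPM in Faslpr replicates 1 to 4. These levels rested on between 42.9 and 70.4 reads per library, the groups overlapped, and the log2 fold change was −0.16 with an SE of 0.20. The deposited values of Per3 are uncertain for a further reason, since the gene lies in the annotation on the same strand as part of Camta1.

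Ratios were taken from log2 CPM values with a prior count of 2, and that of Per2 to Per1 separated the groups. It was 0.195, 0.191, 0.182 and 0.245 in EAF2Faslpr replicates 1 to 4, against 0.312, 0.310, 0.360 and 0.310 in Faslpr replicates 1 to 4. The ratio of Per2 to the geometric mean of Dbp, Nr1d2 and Tef was 0.81, 0.636, 0.56 and 0.883 in EAF2Faslpr replicates 1 to 4, against 1.03, 1.07, 0.999 and 1.17 in Faslpr replicates 1 to 4. Both ratios were lower in each EAF2Faslpr library than in any Faslpr library. The ratio of Arntl, which runs opposite to the output genes in rhythmic tissues, to the same mean of Dbp, Nr1d2 and Tef was 2.33, 2.25, 1.82 and 2.24 in EAF2Faslpr replicates 1 to 4, against 3.04, 2.32, 2.29 and 2.73 in Faslpr replicates 1 to 4. It did not separate the groups, since EAF2Faslpr replicate 1, at 2.328, lay above Faslpr replicates 2 and 3, at 2.323 and 2.289. EAF2Faslpr replicates 2 to 4 lay below every Faslpr library. Nr1d2, part of that mean, was low in EAF2Faslpr replicate 1, at 26.5 CPM, and its part in the overlap was not tested. The Per2 ratios rest on the Per2 values that chose the members, and all 3 ratios describe these 8 libraries and test nothing.

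**Figure D2:**
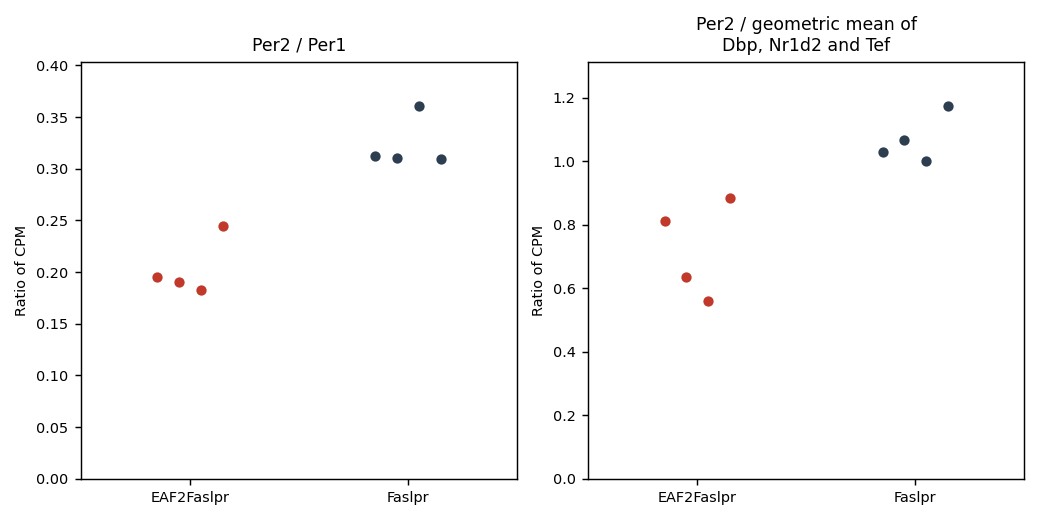
Ratio of Per2 to Per1 (left) and to the geometric mean of Dbp, Nr1d2 and Tef (right), from log2 CPM values with a prior count of 2. There is 1 point per library, EAF2Faslpr to the left of Faslpr, replicates 1 to 4 from left to right. The highest EAF2Faslpr ratio to Per1 is 0.245 and the lowest Faslpr ratio is 0.310.

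The cryptochrome genes, whose proteins repress CLOCK and BMAL1 together with PER, were lower at the mean in EAF2Faslpr libraries and were not called. Cry1 was at 25.2, 25.2, 27.4 and 28.6 CPM in EAF2Faslpr replicates 1 to 4, against 31.9, 29.8, 29.5 and 30.8 CPM in Faslpr replicates 1 to 4. Every EAF2Faslpr library lay below every Faslpr library, by a margin smaller than the spread within EAF2Faslpr, and the log2 fold change of −0.20 (SE 0.08) was not called. Cry1 also varied least of the tested members within the groups, with an SD of 0.07 on the log2 scale, against 0.23 for Per3, which varied most. Cry2 was at 15.5, 22.7, 20.8 and 19.5 CPM in EAF2Faslpr replicates 1 to 4, against 21.4, 21.9, 21.5 and 20.3 CPM in Faslpr replicates 1 to 4. EAF2Faslpr replicate 1 was the low library, the groups overlapped, and the log2 fold change was −0.11 (SE 0.12, not called).

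On the activating side, Clock, which encodes the partner of BMAL1, was at 29.7, 31.8, 31.5 and 30.2 CPM in EAF2Faslpr replicates 1 to 4, against 33.1, 30.3, 32.8 and 21.4 CPM in Faslpr replicates 1 to 4. Faslpr replicate 4 was low and the other 7 libraries lay close together (log2 fold change 0.07, SE 0.13, not called). Arntl, the gene of BMAL1 and not one of the 10, was at 46.6, 51.3, 43.9 and 51.7 CPM in EAF2Faslpr replicates 1 to 4, against 58.2, 55.2, 51.0 and 55.9 CPM in Faslpr replicates 1 to 4. It was lower at the mean but the groups overlapped, and it did not pass (48.4 ± 3.80 against 55.1 ± 3.01 CPM, SD, n = 4 each; log2 fold change −0.19, SE 0.08, adjusted p = 0.17 by edgeR's quasi-likelihood test).

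The REV-ERB genes, which encode receptors that repress Arntl, differed widely in level from each other. Nr1d2 (REV-ERB beta) was at 26.5, 34.5, 34.7 and 35.5 CPM in EAF2Faslpr replicates 1 to 4, against 32.9, 37.7, 35.6 and 31.1 CPM in Faslpr replicates 1 to 4 (log2 fold change −0.06, SE 0.11, not called). EAF2Faslpr replicate 1 was low and the groups overlapped. Nr1d1 (REV-ERB alpha) had 3, 8.46, 5.99 and 9.76 estimated reads in EAF2Faslpr replicates 1 to 4, against 12, 9, 0 and 15.8 reads in Faslpr replicates 1 to 4. It was not tested, the groups overlapped, and Faslpr replicate 3 was listed at 0, which allows up to 0.165 CPM. Nr1d1 overlaps Thra on the opposite strand, and without a stated strand setting reads of these genes cannot be told apart.

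The output factors Dbp and Tef, which activate genes with D-boxes, were not called either. Dbp was at 15.2, 16.3, 17.4 and 17.1 CPM in EAF2Faslpr replicates 1 to 4, against 12.7, 15.1, 13.5 and 17.0 CPM in Faslpr replicates 1 to 4 (log2 fold change 0.18, SE 0.11). The groups overlapped. Dbp overlaps Sphk2 on the opposite strand in the annotation, so its values are uncertain in the same way. Cry2, Clock, Tef and Arntl also overlap annotated genes, which are not in the deposited gene table. Tef was at 19.7, 21.1, 23.2 and 20.2 CPM in EAF2Faslpr replicates 1 to 4, against 16.5, 23.2, 22.7 and 16.2 CPM in Faslpr replicates 1 to 4 (log2 fold change 0.10, SE 0.14). Faslpr replicates 1 and 4 were the low libraries for Tef, while for Dbp Faslpr replicate 4 was the highest of its group. Dbp and Tef thus did not take the same order among the Faslpr libraries.

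**Figure D3:**
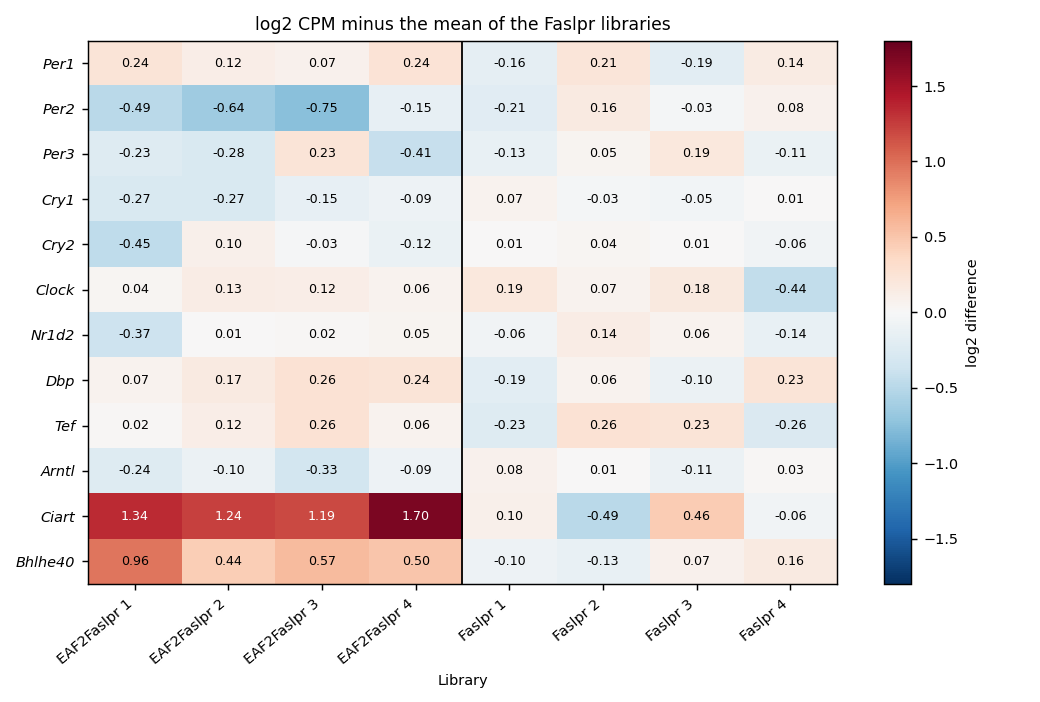
Difference of each library's log2 CPM from the mean of the Faslpr libraries, for the 9 tested members, Arntl, Ciart and Bhlhe40 (rows), with EAF2Faslpr libraries to the left of the line and Faslpr libraries to its right. Per2 is at −0.75 in EAF2Faslpr replicate 3 and at −0.15 in replicate 4, while Ciart and Bhlhe40 are above 0 in all 4 EAF2Faslpr libraries.

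Levels of different genes were compared per length, on the authors' FPKM scale. In EAF2Faslpr cells the order of mean FPKM was Per1 (16.8 ± 0.86), Dbp (10.4 ± 0.78), Cry1 (9 ± 0.58), Nr1d2 (7.30 ± 0.94), Cry2 (5.06 ± 0.79), Tef (4.89 ± 0.47), Clock (3.58 ± 0.14), Per2 (2.84 ± 0.48), Per3 (0.495 ± 0.11) and Nr1d1 (0.14 ± 0.057), as SD over 4 libraries. In Faslpr cells it was Per1 (15.2 ± 2.25), Cry1 (10.2 ± 0.29), Dbp (9.03 ± 1.25), Nr1d2 (7.54 ± 0.70), Cry2 (5.48 ± 0.14), Tef (4.53 ± 0.88), Per2 (4.01 ± 0.47), Clock (3.35 ± 0.67), Per3 (0.55 ± 0.063) and Nr1d1 (0.193 ± 0.14). The order differed in 2 places, Dbp with Cry1 and Clock with Per2, and in both groups the ranges of these neighbours overlapped. Ranges also overlapped for Cry2 and Tef in both groups, and for Dbp and Nr1d2 and for Tef and Per2 in the Faslpr group. Per1 above all others, and Per3 and Nr1d1 below all others, were separated in both groups. Arntl stood above all of them at the mean in both groups, with of 17.7 ± 1.45 FPKM in EAF2Faslpr and 20.1 ± 0.89 FPKM in Faslpr cells, with a range that overlapped that of Per1 in EAF2Faslpr and not in Faslpr cells.

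Of the 37 tested clock genes outside the 10, 3 rose, where the same threshold called 7.14% of all genes tested as higher. Nothing is read from the number of such clock genes. A list of 46 such symbols, chosen with earlier results of these data known, had 37 tested genes, 12 of them activators, repressors and output factors and 25 of them kinases, ubiquitin ligases and cofactors that act on the PER and CRY proteins or their transcription. In the group of 12, 3 rose and 0 fell by edgeR's quasi-likelihood test, with 2 lower at an unadjusted p under 0.05 and 0 lower by DESeq2 or limma-voom, and the median log2 fold change was 0.05. In the group of 25, 0 rose and 0 fell, with 2 higher and 1 lower at an unadjusted p under 0.05, 2 higher by DESeq2 and 0 by limma-voom, and a median of 0.01.

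Ciart, which encodes a repressor of CLOCK and BMAL1 and whose promoter with 3 E-boxes is shown above, was at 5.59, 5.19, 5.02 and 7.18 CPM in EAF2Faslpr replicates 1 to 4, against 2.29, 1.49, 2.97 and 2.04 CPM in Faslpr replicates 1 to 4. The groups did not overlap, and it rose 2.60-fold (log2 fold change 1.38, SE 0.23, adjusted p = 0.0037 by edgeR). Bhlhe40 (DEC1), a repressor that competes for E-boxes and is induced by T cell activation, was at 164, 115, 126 and 120 CPM in EAF2Faslpr replicates 1 to 4, against 79.0, 77.1, 89.0 and 94.2 CPM in Faslpr replicates 1 to 4. It rose 1.55-fold with no overlap, and EAF2Faslpr replicate 1 was the highest library (log2 fold change 0.63, SE 0.12, adjusted p = 0.0068 by edgeR). Rora, an activator of Arntl that also acts in innate and helper lymphocytes, was low in all libraries, at 4.95, 2.95, 3.20 and 3.75 CPM in EAF2Faslpr replicates 1 to 4, against 1.20, 1.55, 2.04 and 1.72 CPM in Faslpr replicates 1 to 4. It rose 2.27-fold with no overlap (log2 fold change 1.18, SE 0.24, adjusted p = 0.011 by edgeR). Each of the 3 passed in all 8 fits that left out 1 library. Each also overlaps an annotated antisense gene that is not in the deposited gene table, and without a stated strand setting their reads cannot be told apart. Markers of B cells rose in the same libraries, and their part in the rise of these 3 genes was not tested.

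Nfil3, a repressor of D-box genes, and Bhlhe41 (DEC2), a partner of DEC1, did not pass, with log2 fold changes of 0.13 (SE 0.17) and 0.04 (SE 0.29) and adjusted p of 0.694 and 0.954 by edgeR. The clock factors Npas2 and Hlf did not reach the count needed for a test, with at most 10 and 11 estimated reads in any library. Noct, a rhythmic gene of RNA and nucleotide metabolism singled out after its values were seen, was at 251 ± 86.1 CPM in EAF2Faslpr and 421 ± 109 CPM in Faslpr libraries (SD, n = 4 each) without overlap, and did not pass (log2 fold change −0.75, SE 0.24, adjusted p = 0.0796 by edgeR).

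**Figure D4:**
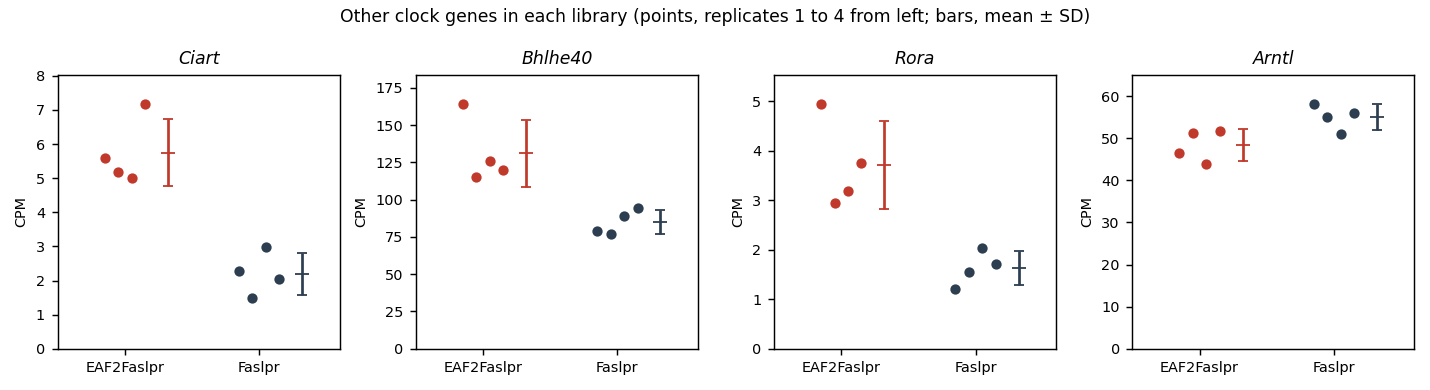
CPM of Ciart, Bhlhe40, Rora and Arntl in each library, EAF2Faslpr to the left of Faslpr, replicates 1 to 4 from left to right as points, and bars for the mean ± SD (n = 4). The groups are apart for Ciart, Bhlhe40 and Rora, and overlap for Arntl.

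**Figure D5:**
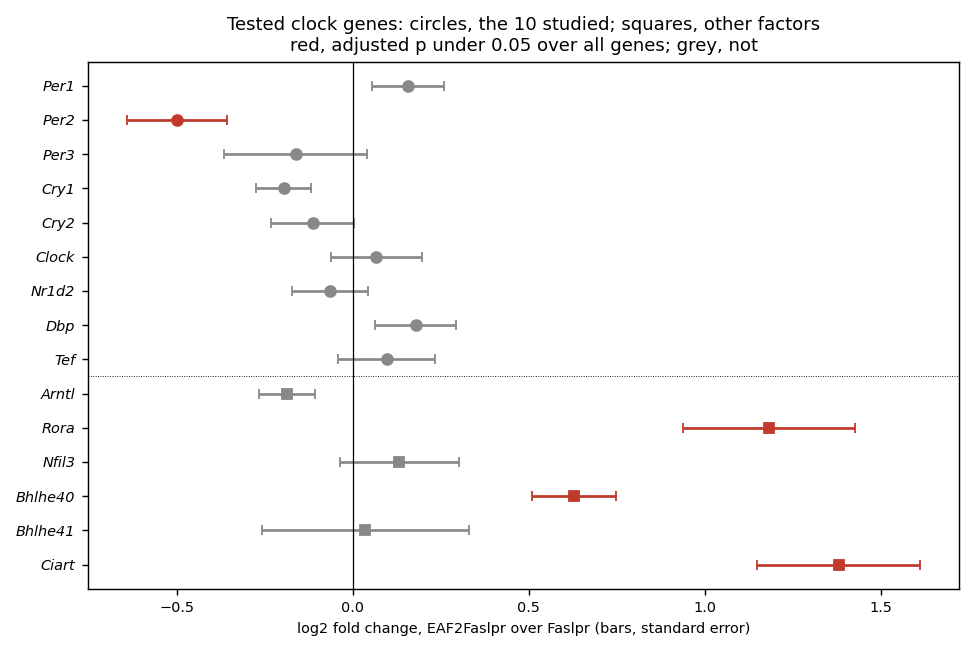
Log2 fold change of EAF2Faslpr over Faslpr with its standard error for the 9 tested members (circles) and 6 other clock factors (squares), in red where the adjusted p over all genes was under 0.05. Per2 lies at −0.50, the other members between −0.20 and 0.18, and Ciart, Rora and Bhlhe40 at 1.38, 1.18 and 0.63.

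Genes of stimuli known to act on Per1 and Per2 in other cells were set beside them. Of 13 tested genes of cAMP and CREB signalling, early genes and pathway parts such as Creb1 and Crtc2, 5 rose and 1 fell, at a median log2 fold change of 0.23. The same threshold called 7.14% of all genes tested as higher and 4.96% as lower. Nr4a3 was the gene that fell (log2 fold change −0.55), and Crem (0.06) and Nr4a2 (0.11) did not pass. Sik1, a kinase that restrains CREB coactivators, was at 48.4 ± 6.46 CPM in EAF2Faslpr and 5.05 ± 1.36 CPM in Faslpr libraries (SD, n = 4 each), 9.54-fold higher, and Rgs2, an inhibitor of G protein signalling, rose 4.36-fold. The receptor Nr4a1 rose 1.81-fold and the AP-1 subunit Fos 5.42-fold, while Per1 of the same response gave a log2 fold change of 0.16 and no call. Of 11 tested genes of glucocorticoid response, among them the receptor gene Nr3c1 and the enzyme gene Hsd11b1, 3 rose and 2 fell, at a median of 0.20. Ddit4 was among those that fell, at a log2 fold change of −0.42, while Tsc22d3 (0.20) and Fkbp5 (−0.14) did not pass. The phosphatase Dusp1 rose 9.67-fold, the interleukin 7 receptor gene Il7r 5.29-fold and the kinase Sgk1 2.75-fold, whereas Klf9, a glucocorticoid target that is also rhythmic in several tissues, fell 1.53-fold (54.6 ± 3.50 CPM in EAF2Faslpr against 83.5 ± 11.9 CPM in Faslpr cells, SD, n = 4 each; adjusted p = 0.00399 by edgeR). The calls of Sik1, Rgs2, Nr4a1, Fos, Dusp1, Il7r, Sgk1 and Klf9 held in all 8 fits with a single library left out. Those of Nr4a3 and Ddit4 did not hold in each of these fits. Of 2 cold-inducible RNA-binding protein genes, 0 passed and 0 were under an unadjusted p of 0.05 by edgeR, with 0 by DESeq2 and limma-voom.

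Per2 lies on mouse chromosome 1, and Eaf2 does not flank it. Of the 5 protein-coding genes on each side of Per2 in the GRCm38.p6 gene table, 8 were tested, and 2 of them fell. The same threshold called 4.96% of all genes tested as lower, and a fall of the region as a whole was not tested. Erfe, the gene of the hormone erythroferrone and the third gene on one side, was at 14.3 ± 3.57 CPM in EAF2Faslpr and 29.0 ± 3.42 CPM in Faslpr libraries (log2 fold change −1.03, SE 0.17, adjusted p = 0.00359 by edgeR). Traf3ip1, the gene of an intraflagellar transport protein and the next gene on the other side, was at 62.5 ± 6.26 CPM in EAF2Faslpr and 85.0 ± 9.16 CPM in Faslpr libraries (SD, n = 4 each for both genes; log2 fold change −0.44, SE 0.10, adjusted p = 0.0163 by edgeR), and passed in 7 of the 8 fits that left out 1 library, with an adjusted p of 0.0522 without EAF2Faslpr replicate 4. The other 6 tested neighbours did not pass, with log2 fold changes of −0.47 for Klhl30 (SE 0.46), −0.23 for Ilkap and −0.03 for Hes6 on the side of Erfe, and of 0.20 for Asb1, 0.03 for Hdac4 and 0.0031 for Ndufa10 on the side of Traf3ip1. The direction for Hes6, Hdac4 and Ndufa10 turned when single libraries were left out.

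Among 9926 tested genes with a mean of at least 5 CPM, those whose log2 CPM followed Per2 most closely over the 8 libraries were Cstf1 (Pearson r = 0.966), Bahd1 (0.958), Wscd2 (0.954), Eml6 (0.951) and Tdrd7 (0.947). These correlations include the difference between the genotypes, and Cstf1 and Bahd1 differed by log2 fold changes of −0.15 and −0.17, Wscd2 by −0.50 and Eml6 by −1.18. With deviations from the group means, Zc3h4 (r = 0.917), Adck1 (0.917), 2700097O09Rik (0.916) and Rexo1 (0.902) were among the 5 nearest. No clock gene of the lists was among the 5 nearest by either measure. The points are the same 8 libraries for every gene and share their scaling, so the values describe likeness and carry no test.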

How the data were processed

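RNA of B220+CD3+ spleen cells was sequenced in 8 libraries, grouped by their titles. The deposited table gave, per the file headers, the authors' estimated counts per gene, not scaled to depth, and their FPKM values. Per the submitters' processing notes, HISAT2 2.2.1, Bowtie2 2.4.5, RSEM 1.3.1 and build GRCm39 were used, with no role stated. Not given in the sources used here are the annotation, any filter and the strand setting. A further 16 per-sample columns (TPM and normalised counts) were not used.

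Estimated counts were rounded. Genes were kept by filterByExpr, scaled by TMM and tested with edgeR's quasi-likelihood test (edgeR 4.0.16, R 4.3.3) over all 8 libraries without covariates, with Benjamini-Hochberg adjustment over the 12340 genes and a threshold of 0.05. Fold changes are EAF2Faslpr over Faslpr, and an SE is the absolute log2 fold change over the square root of F. The procedure was tested on simulated data. Counts of any 2 replicates of a group differed beyond sampling noise (chi-square over degrees of freedom 9.46 to 36.7). Alternatives were DESeq2 1.42.0, its size factors, limma-voom (limma 3.58.1), no filter, each library left out, both libraries numbered 4 left out and a replicate block. Log2 CPM values used a prior count of 2.

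The members, lists, tests and settings were chosen with earlier results of these data known. Named were all members, the core clock factors tested, other clock genes that passed, up to 4 passing genes of each stimulus list by smallest p, the tested neighbours of Per2, and the 5 genes most like Per2 by each measure. Named after their values were seen were Noct, Npas2 and Hlf, single genes of the marker lists, and further genes of the stimulus lists. Some genes the rule took are not reported here. Neighbours and chromosomes came from the RefSeq gene table of GRCm38.p6 and overlaps from GENCODE M21, by name only, since the counts are on another build. Promoters of 9 of the 10 members were in the RefSeq promoter table.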

Additional observations from a re-analysis of the deposited data

Results flagged for a closer look

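In Nr1d2, EAF2Faslpr replicate 1 lay far below its group, at 26.5 CPM against 34.5 to 35.5 CPM in the other 3 libraries. In Bhlhe41, EAF2Faslpr replicate 2 lay above its group, at 6.61 CPM against 2.92 to 3.42 CPM. In Il7r, Faslpr replicate 3 lay above its group, at 3.96 CPM against 1.37 to 1.72 CPM. In Asb1, EAF2Faslpr replicate 2 lay above its group, at 32.5 CPM against 25.1 to 26.3 CPM. Single libraries were looked for in 68 groups of 4 libraries over 34 named genes, and chance marks about 1 in 20 groups at the 95% Dixon threshold used.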

How the results depend on the processing

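Leaving out 1 library at a time, the number of lower members called ranged from 0 to 1, of lower cAMP genes from 0 to 1, of lower glucocorticoid genes from 1 to 2, and of all lower genes from 372 (without Faslpr replicate 2) to 659, while other clock genes called higher stayed at 3. Without both libraries numbered 4, 403 genes were lower, with 0 lower cAMP genes and 1 lower glucocorticoid gene, and Rora did not pass (adjusted p = 0.0562, log2 fold change 1.20), nor did Traf3ip1 (adjusted p = 0.0896). DESeq2 called 5 other clock genes higher. With the replicate number as a block, 1 other clock gene was lower, Noct (adjusted p = 0.0161); same-numbered libraries correlated between −0.05 and 0.168 and 2 of 4 correlated best with their own number, so the numbers were not taken as pairs. The direction turned for Bhlhe41 (−0.0071 by limma-voom, −0.0124 with the block, −0.31 to 0.16 when 1 library was left out), Clock (−0.051 without both libraries numbered 4, −0.059 to 0.13 when 1 was left out), Nr1d2 (−0.11 to 0.025 when 1 was left out), Hes6 (0.024 without both libraries numbered 4, −0.096 to 0.033 when 1 was left out), Hdac4 (−0.11 without both libraries numbered 4, −0.064 to 0.10 when 1 was left out) and Ndufa10 (−0.010 without a filter, −0.049 to 0.046 when 1 was left out), none of which passed in any of these fits. The cause of these changes was not tested, and Per3 and Nr1d1 are limited by their few reads.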
